A study of Mus musculus with 12 samples.

Results

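Keratin-associated proteins are the matrix proteins of hair, and their genes, which carry Krtap symbols in the mouse, were the subject of the description that follows. A row of the deposited expression table was a member where its symbol began with Krtap followed by a digit, which gave 56 of the 18505 genes. The members carried 27 subfamily numbers. By number, 17 members belonged to the high glycine-tyrosine subfamilies (6, 7, 8, 16, 19, 20, 21 and 22), and the other 39 were counted as cysteine-rich.

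The series compared back skin of wild-type male BALB/c mice, supplied at 5 to 6 weeks of age, in 3 groups of 4 samples. The skin was taken on day 10 of a psoriasis model. The backs of all mice were shaved before they were divided into groups. In the control group, the back was coated with petroleum jelly. The IMQ + NS group received imiquimod (IMQ) cream, an agonist of Toll-like receptor signalling that raises psoriasis-like lesions, for 6 h a day, and then a saline (NS) dressing under gauze and film. The IMQ + BZLF group received the same cream and then a dressing of the Banzhilian formula (BZLF). This is a mixture of medicinal herbs and cicada slough, and the sample labels did not give its dose. Control skin had neither cream nor dressing, so the effects of cream and dressing cannot be told apart in comparisons with it. Expression was given as FPKM, in which the fragments counted for a gene are divided by its length and by the size of the library, so that levels can be set side by side between genes. The study's methods do not state the gene lengths used, and comparisons of level between genes rest on them. For scores and histology, the study counted 4 skin lesions per group. Neither that count nor the labels tied the sequenced samples to animals, so p-values measure the spread between these samples.

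A hair shaft is built from bundles of hair keratin filaments embedded in a matrix of keratin-associated proteins. Cysteine-rich members cross-link the keratins through disulfide bonds, and the small high glycine-tyrosine members fill the matrix of the cortex. The genes are transcribed in keratinocytes that leave the matrix of a growing (anagen) follicle and harden into the shaft, and a resting follicle makes little of their RNA. Back hair of the mouse grows in cycles of growth, regression and rest.

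The class given by the subfamily number was checked against the coding sequences of a mouse annotation of the GRCm38 build. All 56 members were found there and had 1 exon in the transcript used. In the glycine-tyrosine class, glycine and tyrosine took a median of 62.9% of codons and cysteine 8.14%. For the cysteine-rich class the medians were 7.14% for glycine and tyrosine and 30.3% for cysteine. Krtap16-1 went against its class. Its 502 codons held 3.78% glycine and tyrosine and 20.1% cysteine, and it lay on chromosome 11 among cysteine-rich genes, whereas the other 16 glycine-tyrosine members were all on chromosome 16. Krtap15 held 4% cysteine codons and 24% glycine and tyrosine codons, the lowest cysteine share of the class in which its number placed it. The classes overlapped in composition. Members with cysteine-rich numbers on chromosome 16 held at most 12.7% cysteine codons (Krtap13), and Krtap24-1 held 8.47%, below Krtap20-2 (16.7%) of the other class. Krtap28-13 held 42.0% glycine and tyrosine codons, above Krtap7-1 (29.9%). The class names used below therefore follow the subfamily number and not the composition of each gene.

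Members sat in a few dense clusters. On GRCm38, chromosome 16 held 24 members between 88610709 and 89571183, of which 16 were glycine-tyrosine genes. Chromosome 11 held 23 members between 99550132 and 99993994, within the type I keratin region. A further 5 members, all of subfamily 5, lay on chromosome 7 between 142174532 and 142304503. Subfamilies 10 and 12 gave 3 members on chromosome 10 between 77720586 and 77837251, and Krtap28-13 stood alone on chromosome 1 between 83060930 and 83061921.

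Promoters were read from a RefSeq table of the GRCm38.p6 assembly, from 250 bases before to 50 bases after each transcription start. A window was listed for 51 of the 56 members, all but Krtap1-3, Krtap7-1, Krtap9-1, Krtap10-10 and Krtap12-1. Those of 3 members are shown. Like every member tested, each was higher in all lesion samples than in all controls, but the 3 differed in class and in control sample 2, described after the levels. In that sample, Krtap17-1 and Krtap8-1 were at 10.1 and 2.03 times the mean of the other controls, and Krtap6-3 at 0.807 times. Krtap8-1 (chr16:89487903-89488202, minus strand) and Krtap6-3 (chr16:89083774-89084073, plus strand) carry glycine-tyrosine numbers, and Krtap17-1 (chr11:99993945-99994244, minus strand) a cysteine-rich one. Each runs 5′ to 3′ on the strand of its gene, with matches to TATAAA and to the Lef1 and Tcf motif in capitals:
Krtap8-1: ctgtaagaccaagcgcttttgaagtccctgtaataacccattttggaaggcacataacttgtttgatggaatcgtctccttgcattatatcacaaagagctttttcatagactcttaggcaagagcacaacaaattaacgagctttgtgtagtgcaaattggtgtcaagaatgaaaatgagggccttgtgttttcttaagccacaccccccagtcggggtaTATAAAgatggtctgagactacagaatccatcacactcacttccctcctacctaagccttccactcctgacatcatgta
Krtap6-3: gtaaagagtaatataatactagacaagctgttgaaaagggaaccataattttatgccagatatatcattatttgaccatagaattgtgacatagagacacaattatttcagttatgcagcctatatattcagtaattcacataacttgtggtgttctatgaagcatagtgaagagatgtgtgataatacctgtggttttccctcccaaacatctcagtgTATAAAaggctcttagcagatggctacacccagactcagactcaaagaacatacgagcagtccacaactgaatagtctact
Krtap17-1: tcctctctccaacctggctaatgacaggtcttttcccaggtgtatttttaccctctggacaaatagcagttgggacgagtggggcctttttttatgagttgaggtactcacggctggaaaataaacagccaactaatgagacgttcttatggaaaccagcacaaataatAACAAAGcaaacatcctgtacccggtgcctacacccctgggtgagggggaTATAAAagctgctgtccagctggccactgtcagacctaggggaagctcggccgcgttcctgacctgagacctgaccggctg

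TATAAA, the letters of the TATA box, was found on either strand in 42 of 51 member promoters (82.4%) and in 13.6% of all 32851 promoters in the table. Starting 20 to 40 bases before the start on the gene's own strand, a placement chosen after the data were seen, it was found in 31 of 51 (60.8%) against 1.99% of all promoters. That placement held in 24 of 35 cysteine-rich promoters (68.6%) and in 7 of 16 glycine-tyrosine promoters (43.8%). In the windows printed above, the capitals TATAAA start 29 bases before the start in Krtap8-1 and 31 bases before it in Krtap6-3 and Krtap17-1.

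Letters bound by transcription factors of the hair matrix were searched on both strands. The Lef1 and Tcf motif (CTTTGAA or CTTTGAT, and CTTTGTA or CTTTGTT) was found in 19 of 51 member promoters (37.3%) and 16.9% of all promoters, and Krtap17-1 shows 1 such match on its reverse strand. The Hoxc13 core (TTAAT or TTTAT) was found in 50 of 51 (98.0%) against 50.8%, but TTTAT is contained in the reverse complement of TATAAA. The Foxn1 core (ACGC) was found in 12 of 51 (23.5%) against 55.3%, but it holds the letters CG, whose frequency in member promoters and in all promoters was not compared. These matches are descriptions of letters and do not show binding.

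Control 2 stood apart from the other controls. Its Krtap genes summed to 179 FPKM, against 112, 84.0 and 71.5 FPKM in controls 1, 3 and 4, and it was high in many genes of growing hair. The median log2 fold changes of the Krtap classes and of the lists of hair genes against control are therefore also given without it. Total FPKM ran from 444660 to 506622 per sample. Krt14 of basal epidermis (405 to 570 FPKM in control samples and 1590 to 2958 FPKM in IMQ + NS samples) and Col1a2 of dermal fibroblasts (4458 to 6535 FPKM and 918 to 1393 FPKM) were present in every sample.

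In control skin, Krtap transcripts were present at low levels. The 56 genes summed to 111 ± 47.9 FPKM (SD, n = 4), which was 0.0246% of all FPKM, and none of them was among the 100 most abundant genes of any control sample. In IMQ + NS lesions, the sum was 43089 ± 6929 FPKM, or 8.66% of all FPKM, and in IMQ + BZLF lesions it was 53498 ± 8578 FPKM, or 10.96%. Between 15 and 22 Krtap genes stood among the 100 most abundant genes of each lesion sample. In tissue of this kind, more cells of a type and more RNA per cell cannot be told apart.

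**Figure D1:**
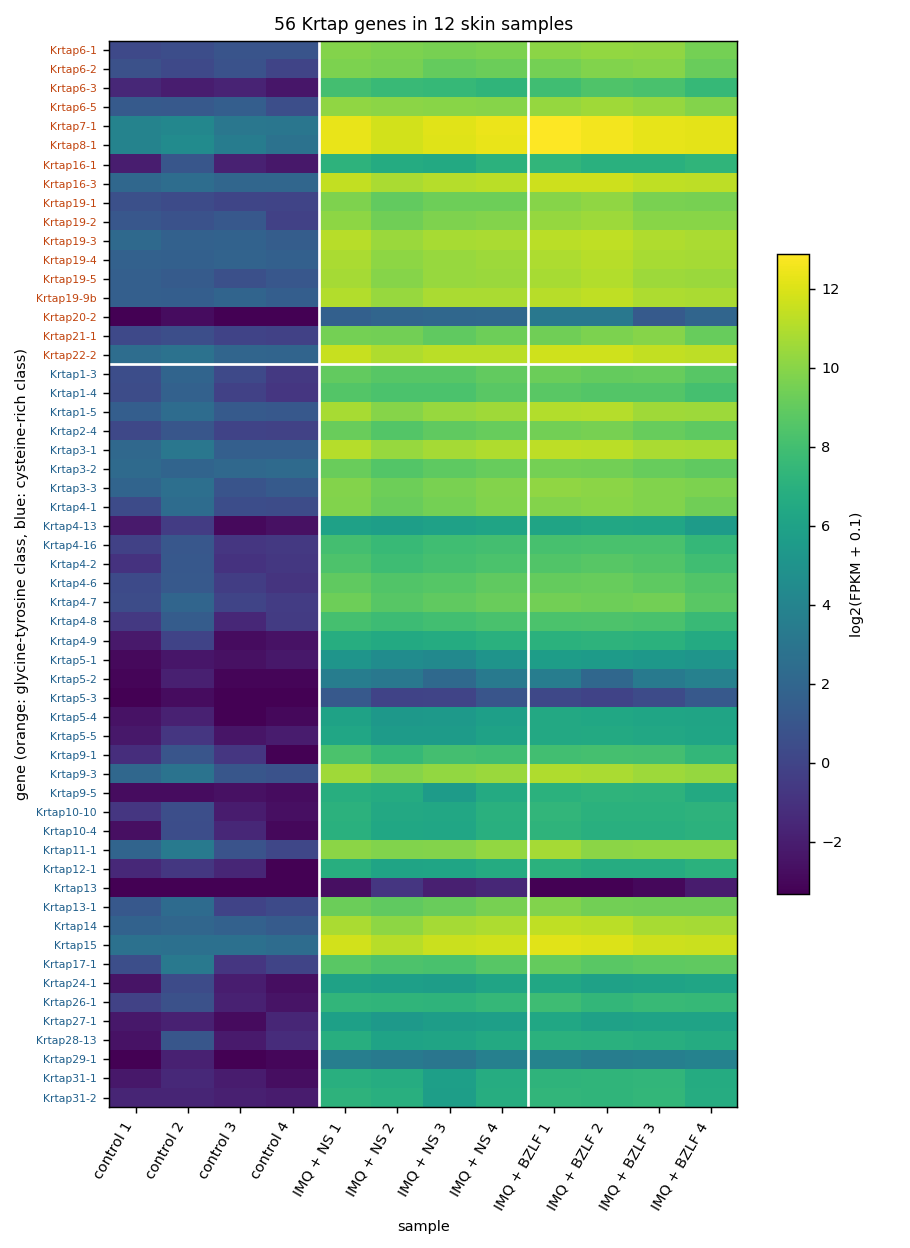
Level of each of the 56 Krtap genes (rows, ordered by class and subfamily number) in each of the 12 samples (columns), as log2(FPKM + 0.1). Every row but that of Krtap13 is brighter in the 8 IMQ samples than in the 4 controls, Krtap7-1 and Krtap8-1 are the brightest rows, Krtap13, Krtap20-2 and Krtap5-3 stay dark, and many cysteine-rich rows are lighter in control 2 than in its neighbours.

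Krtap7-1 and Krtap8-1, both high glycine-tyrosine proteins, had the highest levels of the family. Krtap7-1 was at 15.1, 17.7, 8.65 and 8.21 FPKM in controls 1 to 4, at 5288, 3532, 4594 and 5354 FPKM in the IMQ + NS samples, and at 7543, 6186, 5000.2 and 4847 FPKM in the IMQ + BZLF samples. Krtap8-1 was at 14.8, 22.1, 10.995 and 6.81 FPKM in controls, at 5097, 3556, 4429 and 5304 FPKM in IMQ + NS lesions, and at 7381, 6110, 4927 and 4838 FPKM in IMQ + BZLF lesions. No lesion sample came near a control for either gene. Krtap7-1 had the highest level of all 18505 genes in 6 of the 8 lesion samples. The exceptions were IMQ + NS 2, where the ribosomal protein gene Rpl41 led, and IMQ + NS 3, where the stefin gene Cstdc5 led.

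Krtap15, placed among the cysteine-rich genes by its number, came next. It was measured at 6.41, 6.28, 6.09 and 5.21 FPKM in the 4 controls, which differed little, at 3480, 2225, 3057 and 3289 FPKM after IMQ + NS, and at 4498, 4084, 3146 and 3130 FPKM after IMQ + BZLF. The next places went to the glycine-tyrosine genes Krtap22-2 (means of 4.90 FPKM in control skin, 2418 FPKM after IMQ + NS and 2990 FPKM after IMQ + BZLF) and Krtap16-3 (4.37, 2234 and 2857 FPKM in that order). Their ranges in IMQ + NS samples overlapped, from 1986 to 2965 FPKM for Krtap22-2 and from 1801 to 2668 FPKM for Krtap16-3, but Krtap22-2 was the higher of the pair in all 8 lesion samples. Krtap7-1 exceeded Krtap8-1 in 7 of the 8, IMQ + NS 2 being the exception, by margins that were small beside the spread between samples.

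As a class, the glycine-tyrosine genes were the more abundant per gene. The median of their mean levels was 2.17 FPKM in control skin, 1057 FPKM in IMQ + NS lesions and 1262 FPKM in IMQ + BZLF lesions. For the cysteine-rich genes these medians were 0.657, 239 and 236 FPKM. The most abundant cysteine-rich gene of all, Krtap15, was still below the first 2 glycine-tyrosine genes in each lesion sample. Subfamily 19, with 6 members, had the largest subfamily sum in lesions (14.6 FPKM in control skin, 7884 FPKM in IMQ + NS and 10010 FPKM in IMQ + BZLF lesions), followed by the lone genes of subfamilies 7 and 8. Among the cysteine-rich numbers, subfamily 3 (12.5, 3077 and 3720 FPKM) and subfamily 15 led in lesions, and then subfamily 4 with 8 members (8.31, 2682 and 3047 FPKM), whereas in control skin subfamily 4 was above subfamily 15.

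The most abundant gene of the remaining subfamilies fell into steps of level. At the highest step in both lesion groups were the glycine-tyrosine genes Krtap19-3 (3.44 FPKM in control skin, 1800 ± 336 FPKM in IMQ + NS and 2209 ± 366 FPKM in IMQ + BZLF lesions) and Krtap6-5 (2.17, 1057 ± 86.2 and 1262 ± 243 FPKM). The cysteine-rich genes at that level were Krtap3-1 (4.65, 1761 ± 342 and 2110 ± 376 FPKM), Krtap14 (3.21, 1622 ± 337 and 2057 ± 466 FPKM), Krtap1-5 (3.09, 1395 ± 313 and 1812 ± 356 FPKM), Krtap9-3 (3.70, 1288 ± 235 and 1629 ± 318 FPKM) and Krtap11-1 (3.94, 1023 ± 153 and 1238 ± 280 FPKM). A middle step held Krtap4-1, Krtap13-1 and Krtap17-1, with IMQ + NS means of 776, 607 and 367 FPKM, Krtap2-4, between 375 and 590.4 FPKM in IMQ + NS samples, and the glycine-tyrosine gene Krtap21-1. Below it came Krtap26-1 (163 FPKM), Krtap10-10 (108 FPKM), Krtap31-2 (106 FPKM) and Krtap12-1 (89.7 FPKM), then Krtap28-13, Krtap24-1, Krtap5-5 and Krtap27-1, from 86.6 down to 52.2 FPKM, and Krtap29-1 at 10.9 FPKM. Within a step, the ranges of neighbouring genes over the IMQ + NS samples overlapped. The exceptions were Krtap26-1 and Krtap10-10, and Krtap27-1 and Krtap29-1.

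At the other end stood members with hardly any transcript. Krtap13 was listed at 0 in all controls, at 0.0562, 0.502, 0.169 and 0.254 FPKM in IMQ + NS samples, and at 0, 0, 0.0286 and 0.138 FPKM in IMQ + BZLF samples, and its mean was too low for the test. Krtap5-3, named after its values were seen, ran from 0.839 to 2.17 FPKM in IMQ + NS lesions and from 0.866 to 2.19 FPKM in IMQ + BZLF lesions. Krtap20-2 ran from 3.03 to 4.34 FPKM and from 2.33 to 8.88 FPKM, far under the other 16 glycine-tyrosine genes. Krtap13 and Krtap20-2 lie in the cluster on chromosome 16 that holds the most abundant members, and Krtap5-3 lies in the one on chromosome 7.

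The order of levels changed little between groups. Across the 55 genes tested, the rank correlation of mean levels (Spearman's rho, a description across genes that share libraries) was 0.938 between control and IMQ + NS skin and 0.997 between IMQ + NS and IMQ + BZLF lesions. Within the glycine-tyrosine class it was 0.993 between control and IMQ + NS skin, and within the cysteine-rich class 0.947.

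The first comparison, IMQ + NS against control, asked what changed in the psoriasis-like lesion. All 55 Krtap genes that could be tested were higher in the lesion, and in each of them every lesion sample lay above every control sample. A gene was called at an adjusted p below 0.05 (limma, Benjamini-Hochberg over 15288 genes) with a log2 fold change beyond 1 either way, both on log2(FPKM + 0.1), a scale that understates the change of genes near 0. By that rule 11.4% of all genes tested were called higher, and 23.7% had every lesion sample above every control. The median log2 fold change of the 55 genes was 8.51, equal to 364-fold, beside 0.05 for all genes, and the largest adjusted p was 5.9e-05. An exact two-sided permutation test of any of these genes gives 0.0286, the smallest p that 4 against 4 samples allow. The filter asked for a mean of at least 0.1 FPKM over the 12 samples, and 7 of the 55 genes passed it through the lesion samples, with control means under 0.1 FPKM.

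Among the glycine-tyrosine genes, all 17 were called higher, with a median log2 fold change of 8.96 and a range from 5.14 to 9.53. The gene with the largest rise was Krtap6-3, of a subfamily of small cortex proteins, with 0.245, 0.147, 0.200 and 0.101 FPKM in controls 1 to 4 and 258, 204, 183 and 157 FPKM in IMQ + NS samples 1 to 4. Next came Krtap19-5, at 2.96, 2.39, 1.43 and 1.98 FPKM in controls and 1651, 991, 1332 and 1403 FPKM in lesions (log2 fold change 9.22, SE 0.22, adjusted p = 2.4e-08). Krtap21-1 rose from a mean of 1.03 ± 0.276 to 635 ± 102 FPKM (log2 fold change 9.15, SE 0.18, adjusted p = 9.8e-09). The 2 most abundant members rose by a little less, Krtap7-1 with a log2 fold change of 8.61 (SE 0.26) and Krtap8-1 with 8.49 (SE 0.32). In all of these the lowest lesion sample exceeded the highest control by far more than the controls differed from each other.

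All 38 cysteine-rich genes tested were called higher as well, with a median log2 fold change of 8.30 and a range from 3.71 (Krtap5-3, listed at 0 in 3 controls) to 9.13. That upper value belonged to Krtap9-5, at 0.0444, 0.0443, 0.0680 and 0.0457 FPKM in controls and 113, 98.5, 46.6 and 97.1 FPKM in lesions. Krtap15 (log2 fold change 8.93, SE 0.14) and Krtap14 (8.93, SE 0.19) were close to the glycine-tyrosine median. Smaller changes were fitted for Krtap17-1 (7.73, SE 0.73), Krtap28-13 (7.64, SE 0.67) and Krtap24-1 (7.61, SE 0.61), whose errors were several times those of Krtap15, and which were high in control 2. Changes were smaller still in Krtap5-1 (7.31, SE 0.21), Krtap29-1 (6.30, SE 0.34) and Krtap5-2 (5.86, SE 0.37), with control means under 0.1 FPKM. Krtap29-1 and Krtap5-2 were also high in control 2, but Krtap5-1 was at only 1.47 times the mean of the other controls there. Krtap5-1 and Krtap5-2 were named after their values were seen. Krtap3-2 had the smallest change of any gene above 1 FPKM in every control (6.77, SE 0.15). Its controls were even, at 4.78, 3.57, 4.39 and 4.82 FPKM, and its lesions reached 568, 378, 459 and 562 FPKM. Of its 100-base windows, 25.1% also occur in transcripts of Krtap3-3, so reads of the pair may have been divided between them. Krtap3-3, with 36.7% of its windows shared, was at 3.62, 5.98, 1.78 and 2.29 FPKM in controls 1 to 4. In IMQ + NS samples 1 to 4, Krtap3-3 was at 919, 638, 790 and 947 FPKM. Whether shared reads bear on the change of Krtap3-2 was not tested.

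**Figure D2:**
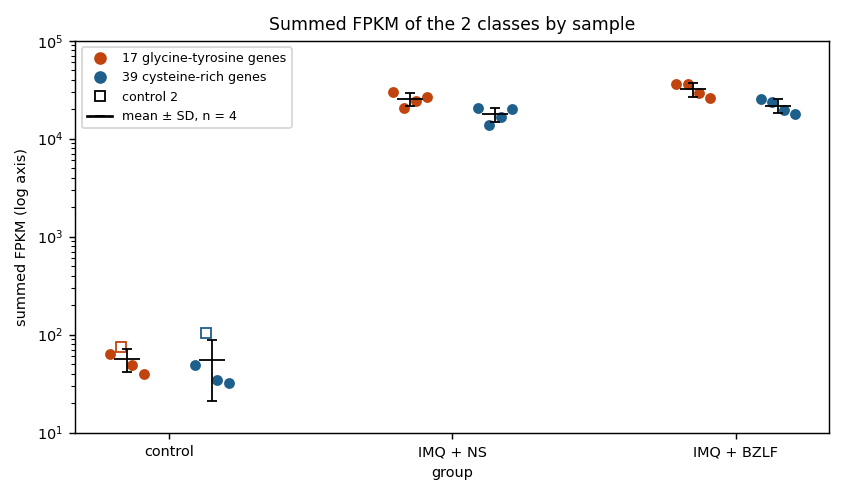
Summed FPKM (log axis) of the 17 glycine-tyrosine genes (orange) and the 39 cysteine-rich genes (blue) in each sample of the 3 groups; the crosses give mean ± SD (n = 4), and open squares mark control 2. Both sums lie between 31.7 and 104 FPKM in controls and between 13850 and 36160 FPKM in lesions, and control 2 is far above the other controls in the cysteine-rich sum only.

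Summed by class, the glycine-tyrosine genes had 63.0, 74.5, 49.5 and 39.9 FPKM in controls 1 to 4, and 29815, 20512, 24303 and 26736 FPKM in IMQ + NS samples. The cysteine-rich genes had 48.5, 104, 34.5 and 31.7 FPKM in the controls and 17747 ± 3053 FPKM (SD, n = 4) in IMQ + NS lesions. Control 2 was the highest control in both sums, at 1.47 times the mean of the others in the glycine-tyrosine genes and at 2.73 times in the cysteine-rich genes. The ratio of mean sums, IMQ + NS over control, was 447 for the glycine-tyrosine and 324 for the cysteine-rich genes with all controls, and 499 and 464 without control 2. Set against control 2 alone, it was 340 and 170.

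Without control 2 the ratios of most members lay closer together. For the 53 genes with a nonzero level among controls 1, 3 and 4, the ratio of the IMQ + NS mean to the mean of those controls had a median of 552 and quartiles of 467 and 628. The 2 classes had medians of 554 (glycine-tyrosine) and 549 (cysteine-rich). Krtap3-2 (105) and Krtap9-5 (1685) marked the ends, and Krtap5-4 (1508), Krtap29-1 (1367), Krtap4-9 (1333), Krtap6-3 (1101) and Krtap31-1 (1004), all of them low in those controls, also lay far above the median. With control 2 as the denominator the medians were 504 and 138. On the fitted scale, leaving out control 2 moved the median log2 fold change of the cysteine-rich genes from 8.30 to 8.78 and that of the glycine-tyrosine genes from 8.96 to 8.997.

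**Figure D3:**
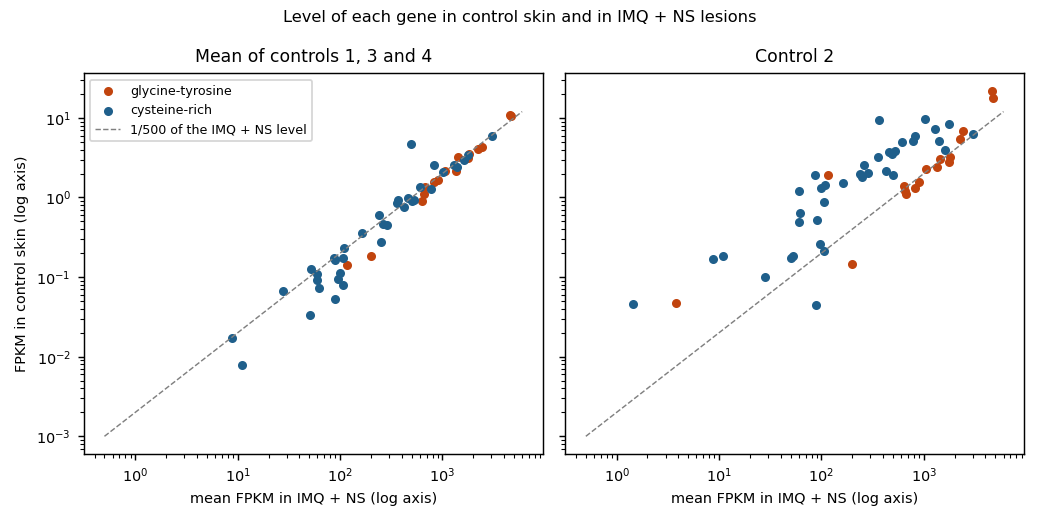
FPKM of each Krtap gene in control skin against its mean FPKM in IMQ + NS lesions (both axes logarithmic), with the mean of controls 1, 3 and 4 on the left and control 2 on the right; genes listed at 0 in the controls shown are left out, and the dashed line marks 1/500 of the lesion level. On the left most genes of both classes lie near the line, with Krtap3-2 (ratio 105) farthest above it and 6 genes at ratios from 1004 to 1685 below it, and on the right most cysteine-rich genes (blue) lie above it while most glycine-tyrosine genes (orange) stay near it.

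Control 2 was described gene by gene. It lay above each of the other controls in 39 of 55 members, where 50.6% of all genes tested did so. It exceeded 2 times the mean of the others in 34 of 55 members, against 9.54% of all genes, and was under 0.5 times that mean in none, against 4.91%. This is 1 sample and allows no test between groups. Counted in the same way, 0 members exceeded 2 times the mean of the other controls in control 1, 0 in control 3 and 1 in control 4, and 6, 6 and 4 members lay above each other control. In these counts the other controls include control 2, and only 1 control can lie above all others in a gene. The low counts therefore follow in part from the high values of control 2 and are no separate check.

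The excess of control 2 fell mostly on the genes with cysteine-rich numbers. Of these, 31 of 38 exceeded 2 times the mean of the other controls, with a median ratio of 3.95. Of the glycine-tyrosine genes, 3 of 17 did so, with a median ratio of 1.11, beside 1.11 for all genes tested. Those 3 were Krtap16-1, Krtap8-1 (ratio 2.03) and Krtap20-2, which was listed at 0 in the other controls and at 0.0468 FPKM in control 2. Counted with the cysteine-rich genes, to which its codons and its chromosome would assign it, Krtap16-1 left 2 of 16. The glycine-tyrosine genes took 41.7% of all Krtap FPKM in control 2, 55.7% to 58.9% in the other controls and 57.3% to 60.4% in the 8 lesion samples.

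Single members show how far the genes diverged. Krtap17-1, whose coding sequence holds 35.8% cysteine codons and 34.9% glycine and tyrosine codons, was at 9.41 FPKM in control 2 and at 1.38, 0.503 and 0.912 FPKM in controls 1, 3 and 4. Krtap16-1 was at 1.92 FPKM in control 2 against 0.146, 0.176 and 0.109 FPKM, a ratio of 13.4. Krtap24-1 was at 1.21 FPKM against 0.0797, 0.146 and 0.0492 FPKM, a ratio of 13.2. The largest ratio, 23.3 for Krtap29-1, rested on 0.186 FPKM in control 2, with controls 1 and 3 listed at 0 and control 4 at 0.0239 FPKM. Each of these values was still far below the IMQ + NS range, which began at 293 FPKM for Krtap17-1, 91.7 FPKM for Krtap16-1, 51.6 FPKM for Krtap24-1 and 8.25 FPKM for Krtap29-1.

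Many members that control 2 did not raise belonged to subfamilies 19 and 6 of chromosome 16. All 6 genes of subfamily 19 had ratios between 0.912 and 1.12, and the 4 genes of subfamily 6 between 0.807 (Krtap6-3) and 1.05. Krtap6-2 was at 1.11 FPKM in control 2 and at 1.55, 1.59 and 0.914 FPKM in controls 1, 3 and 4. Krtap15 (ratio 1.06) and Krtap14 (1.33), which carry cysteine-rich numbers on that chromosome, were near 1 too. The other 5 cysteine-rich genes at no more than 2 times the mean of the other controls were Krtap3-2 (0.764), Krtap9-5 (0.842) and Krtap31-2 (1.24) on chromosome 11, Krtap27-1 (1.47) on chromosome 16 and Krtap5-1 (1.47) on chromosome 7. On chromosome 11, 20 of 23 members exceeded 2 times the mean of the other controls, and on chromosome 16, 6 of 23 did, of which 4 were among its 7 tested cysteine-rich genes.

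**Figure D4:**
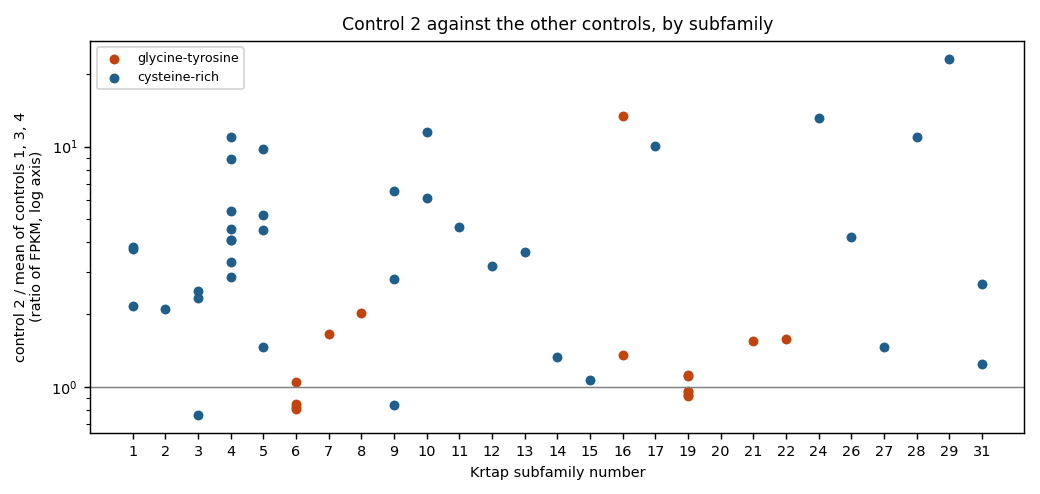
Ratio of FPKM in control 2 to the mean of controls 1, 3 and 4 (log axis) for each Krtap gene, by subfamily number; Krtap5-3, Krtap13 and Krtap20-2 are not drawn because the other controls were listed at 0, and the line marks a ratio of 1. Subfamilies 6 and 19 lie along the line, whereas subfamilies 4, 10, 17, 24, 28 and 29 lie from 2.86 to 23.3.

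Genes that work beside the Krtap genes were read from lists of hair genes. All 15 hair shaft keratins, the filament partners of these proteins, were called higher in IMQ + NS lesions, with a median log2 fold change of 7.68. Krt33a, the most abundant of them, had means of 5.62 FPKM in control skin, 1193 FPKM in IMQ + NS lesions and 1527 FPKM in IMQ + BZLF lesions. All 9 inner root sheath genes with a row (Krt74 had none), which form the sleeve around the growing shaft, were called higher with a median of 7.02. Of 16 transcription factors of the hair matrix, 14 were called higher with a median of 2.62, among them Dlx3 at 18.5, 122 and 149 FPKM in the same order. Hoxc13, Foxn1 and Lef1, named because their motifs were searched above, were called higher with log2 fold changes of 4.11, 4.82 and 3.23. These medians rest on control 2 as well. Without it they were 8.18 for the hair shaft keratins, 8.50 for the inner root sheath genes and 3.06 for the matrix factors (15 of 16 called higher), with 5.17, 5.24 and 4.17 for Hoxc13, Foxn1 and Lef1, beside 8.90 for the 55 Krtap genes.

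In control 2 these lists were high together with the cysteine-rich Krtap genes. Its hair shaft keratins summed to 318 FPKM, against 15.6 to 35.0 FPKM in the other controls, and 14 of 15 exceeded 2 times the mean of the others. The inner root sheath genes summed to 1976 FPKM against 19.7 to 58.4 FPKM, with a median ratio of 42.8, and Krt71 alone was at 638 FPKM against 14.6, 6.36 and 5.04 FPKM. Matrix transcription factors had a median ratio of 5.46 and melanocyte genes one of 11.8. The 10 proliferation genes summed to 233 FPKM in control 2, above the IMQ + NS range of 172 to 212 FPKM, and to 24.1 to 40.1 FPKM in the other controls. Beside these lists, the glycine-tyrosine Krtap genes had the lowest median ratio in that sample, 1.11.

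Markers of other parts of the skin changed in the same comparison. In IMQ + NS lesions, 6 of 6 genes of hyperproliferative epidermis and 8 of 8 neutrophil genes were called higher, with sums of 201 to 631 FPKM in controls against 4040 to 9373 FPKM for the epidermal genes and 21.1 to 32.2 against 1575 to 5036 FPKM for the neutrophil genes. Of all 15288 genes tested, 1678 were called lower and 1740 higher. Called lower were 7 of 7 skeletal muscle genes (sums of 3392 to 8337 FPKM against 626 to 1539 FPKM), 6 of 7 genes of dermal fibroblasts, 5 of 7 of adipocytes and 5 of 8 of sebaceous glands. Outer root sheath and bulge genes had 4 of 12 higher and 2 lower, and interfollicular epidermis 5 of 9 higher and 2 lower. The most abundant gene of each list shows the size of these changes. S100a8 went from a mean of 14.7 to 3009.9 FPKM, S100a9 from 15.6 to 2909 FPKM, Acta1 from 2922 to 395 FPKM and Cfd from 3158 to 828 FPKM. The proliferation gene Cdc20 (11.3 and 31.00 FPKM) and the melanocyte gene Dct (34.7 and 111 FPKM) were called higher, as were 9 of 10 and 4 of 6 genes of their lists. Scd1 of sebaceous glands (694 and 362 FPKM) and Krt15 of the outer root sheath (387 and 217 FPKM) were lower by less than the fold limit and were not called. The counts in this paragraph include control 2. Without it, 10 of 10 proliferation genes and 5 of 12 outer root sheath and bulge genes were called higher, and 6 of 7 adipocyte genes lower. The other list counts in this paragraph stayed the same. No list had a gene at 0 in all samples. The part of these changes in the Krtap values was not tested.

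IMQ + BZLF lesions were set against control skin in the same way. All 55 members were again called higher, where 9.65% of all genes were, and in all 55 the groups did not overlap, as in 19.4% of all genes. The median log2 fold change was 8.82, with a median of 9.30 for the glycine-tyrosine and 8.60 for the cysteine-rich genes, and a range from 3.63 to 9.92. The largest adjusted p was 7.2e-05 (limma). Without control 2 all 55 were still called, and the medians were 9.32 and 9.05 for the 2 classes. Krtap6-3, at 238, 343, 306 and 182 FPKM in IMQ + BZLF samples 1 to 4, led again, followed by Krtap9-5 (9.70, SE 0.16) and Krtap19-1 (9.55, SE 0.18). This comparison uses the same control samples as the one before, so the 2 are not independent.

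Whether the BZLF dressing changed these genes was asked by setting IMQ + BZLF lesions beside IMQ + NS lesions, and no Krtap gene was called in either direction. Over all genes tested, 0.321% were called higher and 2.20% lower. At an unadjusted p below 0.05, 15 of the 55 members were higher, against 7.96% of all genes, and none was lower. The fitted log2 fold changes were above 0 for 53 members and below 0 for 2, Krtap9-1 and Krtap5-3, with a median of 0.31 beside −0.02 for all genes and a range from −0.09 to 0.64. By class the medians were 0.32 (glycine-tyrosine) and 0.28 (cysteine-rich). Members share each sample's follicles and are not replicates, so the count of 53 is a description.

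Sample by sample the groups overlapped. The Krtap sum was 50257, 34362, 41105 and 46631 FPKM in IMQ + NS samples 1 to 4 and 61667, 59701, 48791 and 43835 FPKM in IMQ + BZLF samples 1 to 4. IMQ + BZLF 1 and 2 lay above every IMQ + NS sample, and IMQ + BZLF 3 and 4 lay inside their range. The sum was 25341 ± 3931 against 31839 ± 5057 FPKM for the glycine-tyrosine genes and 17747 ± 3053 against 21659 ± 3566 FPKM for the cysteine-rich genes. The ratio of means was 1.26 for the first class and 1.22 for the second.

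For Krtap7-1 the log2 fold change was 0.33 with a 95% interval from −0.11 to 0.76 (adjusted p = 0.36, limma). For Krtap8-1 the interval ran from −0.09 to 0.75, and for Krtap15 from −0.11 to 0.71. These intervals hold both no change and a rise of 1.64-fold, so the data do not show that the 2 dressings gave equal levels. The highest upper bound of any member was 1.32, for Krtap20-2, and the lowest lower bound was −0.88, for Krtap5-3.

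In 4 members the IMQ + BZLF samples all lay above the IMQ + NS samples, where 4.24% of all genes tested did so. These were Krtap5-1, Krtap5-4, Krtap17-1 and Krtap27-1, of which the first 2 were named after their values were seen. Krtap5-4, a member of a subfamily of the hair cuticle, was at 63.5, 39.3, 42.4 and 57.2 FPKM in IMQ + NS lesions and at 87.4, 80.2, 72.7 and 69.3 FPKM in IMQ + BZLF lesions. Its log2 fold change was 0.64 (SE 0.15, adjusted p = 0.0433, limma), under the fold limit, and it was the only member with an adjusted p below 0.05, which 1.28% of all genes reached in that direction. Its adjusted p rose to between 0.059 and 0.12 when any lesion sample other than IMQ + NS 1 was left out. Krtap17-1 was at 429, 332, 293 and 411 FPKM against 534, 434, 470 and 487 FPKM (adjusted p = 0.098). Krtap27-1 ran from 42.8 to 58.8 FPKM against 62.5 to 79.2 FPKM (adjusted p = 0.060), and Krtap5-1 from 20.6 to 34.2 FPKM against 34.7 to 52.0 FPKM (adjusted p = 0.079). For Krtap5-1, 33.9% of 100-base windows occur in other transcripts.

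**Figure D5:**
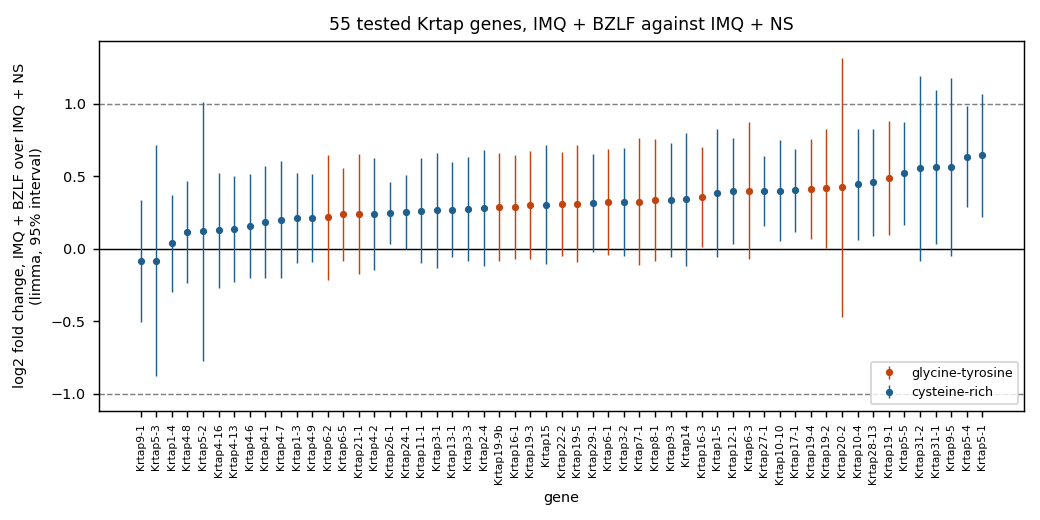
Log2 fold change of IMQ + BZLF over IMQ + NS for the 55 tested Krtap genes, ordered by its size, with 95% intervals from limma (bars); orange marks glycine-tyrosine and blue cysteine-rich genes, and dashed lines mark the limit of 1 in each direction. All points lie between −0.09 and 0.64, inside the limits, and most intervals include 0.

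Other lists differed between the 2 lesion groups where the Krtap genes did not pass the test. After BZLF, 7 of 8 neutrophil genes and 5 of 6 genes of hyperproliferative epidermis were called lower, with medians of −2.99 and −3.41. None of the 15 hair shaft keratins, 9 inner root sheath genes or 16 matrix transcription factors was called in either direction, and their medians were 0.30, 0.35 and 0.24. No call was made among the proliferation genes (median −0.21) either. Whether the Krtap values and these lists responded differently was not tested.

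Some members share sequence, which limits how well the authors' counting could separate them. At least 1 window of 100 bases was shared with another gene's transcript in 22 of the 56 members, and more than 20% of windows were shared in 9. Krtap4-13 (62.8%), Krtap10-10 (38.9%), Krtap3-3 (36.7%) and Krtap2-4 (35.9%) had the largest shares. Levels of these genes are uncertain. The members with the highest levels, Krtap7-1, Krtap8-1, Krtap15, Krtap22-2 and Krtap16-3, had none.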

How the data were processed

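RNA of back skin was sequenced in 3 groups of 4 samples. The authors deposited 1 table of FPKM per gene and sample, with every column used. Sources differ on its making. The study's methods name a ribosomal depletion kit (TruSeq Stranded), Bowtie2 alignment to transcripts and eXpress, whereas the submitters' notes name a VAHTS kit, fastp, HISAT2, HTSeq, R 3.2.0 and the mm10 build. Handling of reads that match several Krtap genes is not given in the sources used here. The study states the amount of sequence per sample, but counts per gene were not analysed here, so depth per gene is unknown and no counting error is given.

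FPKM values were tested as log2(FPKM + 0.1) with limma 3.58.1 (lmFit, eBayes with trend, R 4.3.3) for each pair of groups, over 15288 genes with a mean of at least 0.1 FPKM, with Benjamini-Hochberg adjustment over all of them, and the code was tested on simulated data. The study's own count test does not suit FPKM. Codons came from GENCODE M21 (GRCm38) and promoters from RefSeq (GRCm38.p6). The check of class used codons, as a protein table was not used here. Members, lists and class rule were chosen with earlier results of these data known. Genes named were the most abundant of each subfamily, the 3 largest changes per comparison, the 3 largest and smallest control 2 ratios at a mean of at least 1 FPKM, and the most abundant gene of each list. Any other gene completes a count, shows a check or was named after its values were seen. Alternatives covered the added constant, filter, scaling, variance model, fold limit, replicate block and each sample left out. Deviations of same-numbered samples correlated from -0.15 to 0.26, not all above 0.1, so the numbers were not taken as pairs.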

Additional observations from a re-analysis of the deposited data

Results flagged for a closer look

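Among 111 groups of 4 samples of the named Krtap genes, 11 held a sample whose gap to its nearest neighbour passed Dixon's 95% critical value for groups of that size, where chance flags about 1 in 20 groups. Of the 11, 9 were control 2, but all genes share that library, and Krtap16-1, Krtap20-2 and Krtap29-1 were named for their control 2 ratio, so this tally cannot be read against chance. It was far above the other controls in the cysteine-rich genes Krtap4-1 (5.19 FPKM), Krtap5-5 (0.489 FPKM), Krtap17-1 (9.41 FPKM), Krtap24-1 (1.21 FPKM), Krtap28-13 (1.89 FPKM) and Krtap29-1 (0.186 FPKM). The same held for Krtap16-1 (1.92 FPKM), Krtap16-3 (5.44 FPKM) and Krtap20-2 (0.0468 FPKM) of the glycine-tyrosine numbers, although Krtap16-3 was only 1.35 times the mean of the other controls, which lay close together. The cysteine-rich Krtap11-1 stood out in IMQ + BZLF 1, at 1658 FPKM against 1093 to 1105 FPKM in the other 3 samples of its group. Krtap9-5 stood out in control 3, at 0.0680 FPKM against 0.0443 to 0.0457 FPKM, a level near 0.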

How the results depend on the processing

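In IMQ + NS and IMQ + BZLF against control, 55 members were called higher under every alternative but the filters (54 at a mean of at least 1 FPKM, and 56 and 55 with no filter), and leaving out each sample gave 55 to 55. IMQ + BZLF against IMQ + NS gave 0 members called higher, and 0 to 0 with a sample left out, but 1 with no limit on the fold change. That 1, Krtap5-4 (adjusted p = 0.0433, limma), lost this when any lesion sample but IMQ + NS 1 was left out (0.059 to 0.12), with no filter (0.089), with all 12 samples in 1 fit (0.26) and with variances without a trend (0.075). Without IMQ + NS 1, 4 members passed, and without IMQ + BZLF 4, Krtap6-1 passed in its place. The number of members above 0 there was 51 to 55, and their median 0.22 to 0.39, when each sample was left out, and 53 under each scaling. With 1 added before the logarithm the class medians against control fell to 8.39 and 6.84 for IMQ + NS and 8.74 and 7.04 for IMQ + BZLF (glycine-tyrosine and cysteine-rich), since a larger constant shrinks the folds of low controls. Equal FPKM sums moved the median of all genes in IMQ + NS against control from 0.05 to -0.07, and quantile normalization to -0.07. The Krtap median there moved from 8.51 to 8.39 with equal FPKM sums and to 8.42 with quantile normalization. With the replicate number as a block, the counts were 55, 0 and 55, and between the lesion groups 4 members then passed the adjusted p without a fold limit. Of 8 samples, 4, 6 and 4 correlated best with their own number in the 3 comparisons, a hint from the data and not from the design. Read counts per gene are unknown, so levels near 0, such as those of Krtap13, Krtap20-2, Krtap5-3 and Krtap29-1 in controls, have no stated precision.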
